A study of Homo sapiens with 6 samples.

Results

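The 39 RNAs described here, of 3152 in the authors' table, encode transcription machinery: Mediator, the TFIID subunits, the general factors and subunits of the RNA polymerases, Integrator, Elongator, elongation factors and nuclear receptor coregulators. They were sought by RNA immunoprecipitation, in which the RNA caught together with an antibody-bound protein is sequenced, from MDA-MB-231 cells. MDA-MB-231 is an established triple-negative line of human breast origin. The antibody recognised PD-L1, the CD274 product best known as the ligand of PD-1, in 3 libraries, and 3 further libraries were made with an IgG isotype control. All 6 came from the same line, crosslinked with formaldehyde, with no other treatment named. Only 1 cell line was used, and nothing in the labels tells whether repeats were grown separately. The p-values therefore measure no more than the spread of these libraries, which may be technical. No knockdown of PD-L1 is among the groups, so the antibody's specificity was not tested here, and with no input library used here an RNA's abundance and its capture cannot be told apart.

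Each RNA of the table has, per library, what the file header calls a sum of peak scores. The rule for members uses symbols and no values: 50 listed symbols start with MED, TAF, GTF, POLR, INTS, CNOT, SUPT, ELP, ELL, TCEA, BRF, NCOA or NCOR (with a digit after MED, TAF, GTF, ELP and BRF). The 11 of these that stand in the authors' DNA damage list were set aside, which leaves 39. Among the 11 were TAF1, INTS3, NCOA6, POLR2D, GTF2H1 and all 4 listed CCR4-NOT RNAs (CNOT4, CNOT6L, CNOT7 and CNOT10), so no deadenylase RNA remains. A symbol rule also takes genes that work elsewhere. NCOA7 carries a coactivator symbol but is also known for oxidation resistance and for binding the vacuolar proton pump, and Elongator modifies transfer RNA.

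Transcription by RNA polymerase II starts when TFIID, TFIIB, TFIIE, TFIIF and TFIIH place the polymerase at a promoter, and Mediator carries signals from DNA-bound activators to it. RNA polymerase III makes transfer RNA and 5S ribosomal RNA with its own factors TFIIIA, TFIIIB and TFIIIC, and RNA polymerase I makes the large ribosomal RNA with the SL1 factor. Integrator cleaves nascent transcripts near promoters and at small nuclear RNA genes, while TFIIS and its relatives act on paused polymerase. These are housekeeping functions that every dividing cell uses.

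The selection sets the direction of what follows. The authors listed RNAs with a 5-fold or larger excess of PD-L1 over IgG, according to the series' design text, so a higher score with PD-L1 is the reason for being listed and supports nothing. The score's scaling between libraries is not given in the sources used here, read depth is unknown and no counting interval is given. A sum of 0 is read here as no scored peak, a reading that the sources used here do not state. PD-L1 repeat 3 stands apart from the other PD-L1 repeats: over the 39 RNAs the Spearman correlation was 0.970 between repeats 1 and 2, against 0.721 and 0.694 between each of them and repeat 3 (over all listed RNAs 0.969, 0.746 and 0.741). Between IgG repeats it was 0.589 to 0.756. The summed score of all listed RNAs was about 206530, 217730 and 123920 in PD-L1 repeats 1 to 3, against 8353, 19288 and 18823 in IgG repeats 1 to 3. In IgG repeat 1, 68.2% of listed RNAs were at 0, against 45.7% and 44.3% in IgG repeats 2 and 3. Low scores in PD-L1 repeat 3 and IgG repeat 1 were thus common over the table. The 39 RNAs held 1.53%, 1.57% and 1.45% of the summed score of the listed RNAs in PD-L1 repeats 1 to 3, against 1.57%, 1.77% and 1.75% in IgG repeats 1 to 3. Of 11 epithelial markers 1 was listed (CLDN4) and of 10 immune cell markers 0, and a marker that is not listed may be expressed without having met the authors' criterion.

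All 39 RNAs passed the test for a higher score with PD-L1 (limma on log2(score + 1), Benjamini-Hochberg adjusted over all listed RNAs at 0.05), where 97.7% of all listed RNAs did. Their median log2 difference, PD-L1 minus IgG, was 3.05 (quartiles 2.72 and 4.25), beside 3.42 over all 3152 (2.82 and 4.23), and 22 of the 39 lay below the table's median. With a pseudocount of 10 the order turned, to 1.98 in the members and 1.69 over the table. With scores of 0 set to the smallest score in the table, 1.81, the medians were 2.99 and 3.05. The scores of all PD-L1 libraries exceeded those of all IgG libraries in 36 of 39 (92.3%), beside 95.9% of the table. A total of 4 members, NCOA1, INTS6, ELP3 and TAF4B, were listed at 0 in all 3 IgG libraries (10.3%, beside 31.7%). Their equal IgG scores add no spread, so the within-group spread in their tests came from the PD-L1 repeats alone. A low adjusted p among these 4 is therefore no sign of better support. In the other 35 the ratio of group means ran from 5.10 for MED6 to 59.3 for INTS8, with a median of 9.33 beside 10.5 in the table. When each library was rescaled to the same summed score over the listed RNAs, the median of all listed RNAs moved by -1.66 on the log2 scale. At that scaling 4 members passed as higher (31.4% of the table did), 1 passed as lower (1.9% did), and 11 of 39 were below 0 (20.8% of the table was). The 4 were those at 0 with IgG, and the 1 was MED6. Rescaling enlarges every IgG score except a 0, so the sign there depends strongly on zeros with IgG. Of the members below 0 only POLR2M had such a zero, and of those above 0 only POLR3A and INTS2 had none.

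**Figure D1:**
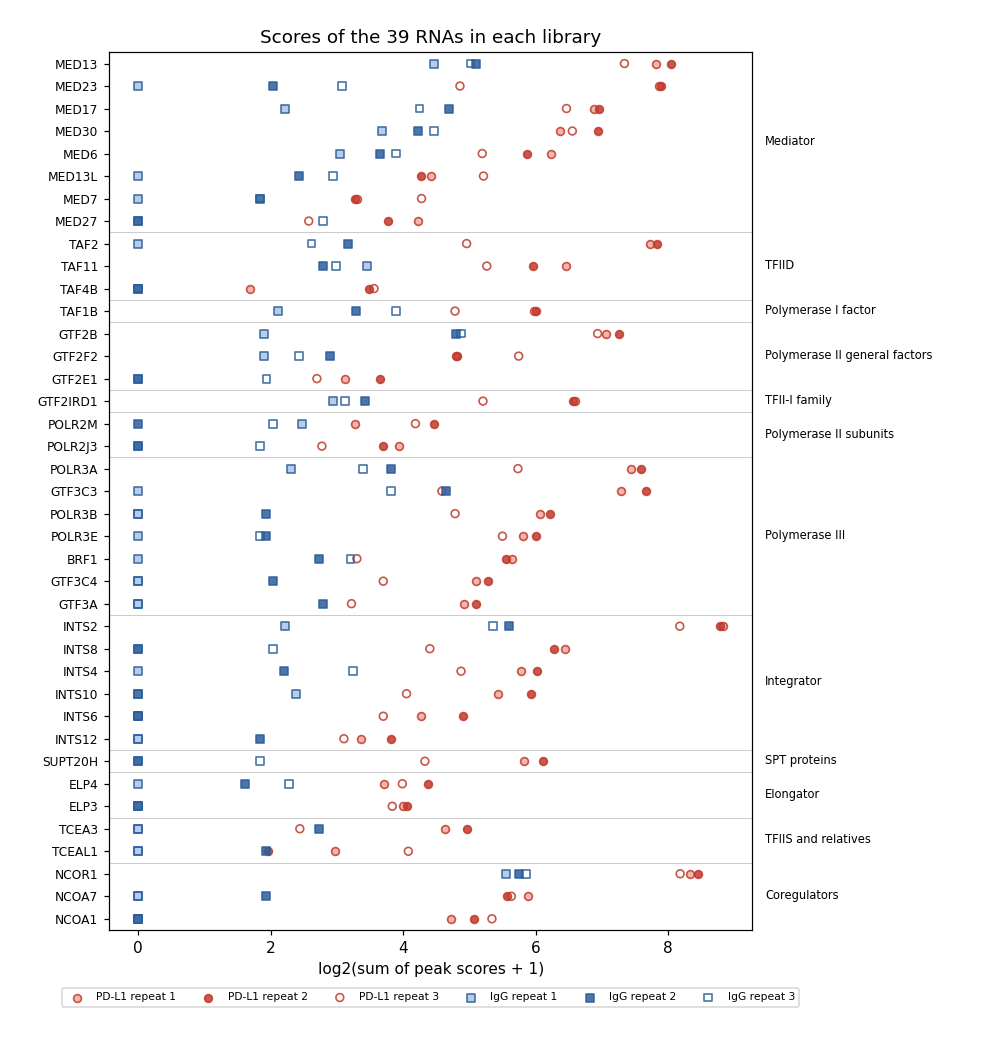
Scores of the 39 RNAs on the log2(score + 1) axis, with a row per RNA grouped by complex; circles are PD-L1 repeats 1 to 3 and squares IgG repeats 1 to 3, and repeat 3 has open symbols. In 36 rows every circle lies right of every square, while MED27, GTF3C3 and TCEA3 overlap.

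Mediator had the most members, 8 of the 33 Mediator genes looked for, drawn from its head, middle, tail and kinase modules. All 8 passed at the authors' scaling, as did 97.7% of the table. Their median log2 difference was 2.72, beside 3.42 for the table. With rescaled libraries MED13, MED17, MED30 and MED6 were below 0, beside 20.8% of the table. These Mediator RNAs had no 0 with IgG, while each of the other Mediator members did. MED23, a tail-side subunit that receives signals from activators, scored 232, 236 and 28.0 in PD-L1 repeats 1 to 3, against 0, 3.09 and 7.46 in IgG repeats 1 to 3. Repeats 1 and 2 were alike and repeat 3 was far lower, though still above every IgG library. Its log2 difference of 5.17 ± 1.13 (SE), adjusted p = 0.00523 in limma, ranged from 4.32 when IgG repeat 1 was left out to 6.17 when PD-L1 repeat 3 was. MED13, which holds the kinase module to the rest of Mediator, scored 225, 263 and 161 with PD-L1, against 21.1, 33.2 and 31.4 with IgG. All its IgG libraries were well above 0 and its difference was 2.88 ± 0.34 (SE), adjusted p = 0.000501 in limma. MED17, a scaffold of the head module, scored 117, 123 and 87.4 with PD-L1, against 3.63, 24.95 and 18.0 with IgG. Its PD-L1 libraries lay close together while IgG repeat 1 was the low one of its group, and the difference of 3.05 ± 0.68 (SE) became 2.29 when IgG repeat 1 was left out.

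Both other head subunits were detected in every IgG library. MED30 scored 81.3, 122 and 93.0 with PD-L1, against 11.8, 17.7 and 21.1 with IgG, a difference of 2.50 ± 0.34 (SE) (adjusted p = 0.000872 in limma). MED6 scored 74.0, 57.3 and 35.6 with PD-L1, against 7.26, 11.6 and 13.9 with IgG. The groups did not overlap, but the difference was small, at 2.23 ± 0.41 (SE) (adjusted p = 0.00261 in limma). With rescaled libraries it passed in the other direction (-1.25, adjusted p = 0.0200). In every alternative without rescaling it passed as higher with PD-L1. Adjusted p ran from 0.00138 (higher, log2 1.62 at a pseudocount of 10) to 0.0294 (lower, log2 -1.22, rescaled without PD-L1 repeat 3). MED13L, the paralog of MED13, and MED7 of the middle module went against the usual order of the PD-L1 repeats. MED13L scored 20.4, 18.3 and 36.1 with PD-L1, against 0, 4.37 and 6.69 with IgG, and MED7 scored 8.89, 8.71 and 18.4 with PD-L1, against 0, 2.57 and 2.57 with IgG. In both, repeat 3 was the highest library. The difference of MED13L (2.85 ± 0.82 (SE), adjusted p = 0.0146 in limma) did not pass with PD-L1 repeat 3 left out (log2 2.56, adjusted p = 0.0725) or at a pseudocount of 0.1 (log2 4.05, adjusted p = 0.0674), in a range of adjusted p over all alternatives from 0.00296 to 0.982. That of MED7 (2.40 ± 0.62 (SE), adjusted p = 0.00981 in limma) did not pass at a pseudocount of 0.1 (log2 3.67, adjusted p = 0.0532), in a range from 0.00128 to 0.936. MED27, on the tail side, scored 17.8, 12.7 and 4.96 with PD-L1, against 0, 0 and 5.92 with IgG. Its groups overlapped, since PD-L1 repeat 3 was below IgG repeat 3. The difference of 2.60 ± 0.89 (SE) (adjusted p = 0.0283 in limma) did not pass with PD-L1 repeat 1 left out (log2 2.24, adjusted p = 0.107), with PD-L1 repeat 2 left out (log2 2.47, adjusted p = 0.0963), with PD-L1 repeat 3 left out (log2 3.07, adjusted p = 0.0504), with IgG repeat 1 left out (log2 2.13, adjusted p = 0.0761) or with IgG repeat 2 left out (log2 2.13, adjusted p = 0.0811), in a range from 0.00306 to 0.687. With 1 library left out, the log2 difference was 1.95 for MED13L lacking IgG repeat 1, 1.79 for MED7 lacking IgG repeat 1 and 3.53 for MED27 lacking IgG repeat 3. The kinase module's CDK8, outside the symbol rule, was also listed, at 27.1, 31.9 and 11.2 with PD-L1, against 0, 0 and 2.32 with IgG.

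Of TFIID, the complex that recognises promoters, 3 RNAs were members, and TAF1 was also listed but set aside with the DNA damage list (471, 497 and 189 with PD-L1, against 14.8, 25.5 and 31.7 with IgG). TAF2, which contacts promoter DNA at the start site, scored 209.9, 227 and 30.1 with PD-L1, against 0, 7.97 and 5.14 with IgG. Its form was that of MED23, with repeat 3 far below repeats 1 and 2, and its difference of 4.91 ± 1.13 (SE) (adjusted p = 0.00641 in limma) ranged from 3.95 when IgG repeat 1 was left out to 5.85 when PD-L1 repeat 3 was. TAF11, a histone-fold subunit, scored 87.0, 61.5 and 37.4 with PD-L1, against 9.97, 5.92 and 6.94 with IgG, a difference of 2.82 ± 0.41 (SE) (adjusted p = 0.00108 in limma) that was -0.63 with rescaled libraries. TAF4B, a paralog of TAF4 known from gonads and B cells, scored 2.22, 10.2 and 10.8 with PD-L1 and was listed at 0 in all 3 IgG libraries. Here repeat 1 was the low PD-L1 library. It passed with an adjusted p of 0.00312 in limma, and no fold can be given against a group at 0. TAF1B, a subunit of SL1 in RNA polymerase I transcription, scored 62.2, 63.5 and 26.5 with PD-L1, against 3.32, 8.74 and 13.9 with IgG (log2 difference 2.49 ± 0.59 (SE), adjusted p = 0.00730 in limma), and lay at -0.92 with rescaled libraries.

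Among general factors of RNA polymerase II, GTF2B, which is TFIIB, scored 133, 153 and 121 with PD-L1, against 2.72, 26.7 and 28.3 with IgG. All PD-L1 libraries were high, repeat 3 included, and IgG repeat 1 was low beside its group. The difference of 3.23 ± 0.84 (SE) (adjusted p = 0.0100 in limma) fell to 2.26 when IgG repeat 1 was left out and was -0.21 with rescaled libraries. GTF2F2, the small subunit of TFIIF, scored 26.9, 27.3 and 52.6 with PD-L1, against 2.72, 6.43 and 4.37 with IgG, with repeat 3 the highest (log2 difference 2.72 ± 0.43 (SE), adjusted p = 0.00146 in limma, and -0.59 with rescaled libraries). GTF2E1, the large subunit of TFIIE, was low throughout, at 7.67, 11.6 and 5.49 with PD-L1, against 0, 0 and 2.83 with IgG (log2 difference 2.51 ± 0.63 (SE), adjusted p = 0.00857 in limma). GTF2IRD1, a relative of TFII-I from the Williams syndrome region, scored 95.5, 93.8 and 35.9 with PD-L1, against 6.65, 9.77 and 7.72 with IgG. Its IgG libraries were close to each other, and the difference of 2.96 ± 0.47 (SE) (adjusted p = 0.00145 in limma) was -0.50 with rescaled libraries. The genes for RNA polymerase II itself gave 2 members of 15 genes looked for, neither a catalytic subunit. POLR2M, which encodes the polymerase-associated protein Gdown1, scored 8.68, 21.0 and 17.2 with PD-L1, against 4.53, 0 and 3.09 with IgG (log2 difference 2.47 ± 0.73 (SE), adjusted p = 0.0162 in limma). It was below 0 with rescaled libraries (-0.077) and did not pass with PD-L1 repeat 2 left out (log2 2.23, adjusted p = 0.0681), with PD-L1 repeat 3 left out (log2 2.37, adjusted p = 0.0711) or at a pseudocount of 0.1 (log2 3.70, adjusted p = 0.0690), in a range from 0.00328 to 0.969. POLR2J3 scored 14.3, 12.0 and 5.84 with PD-L1, against 0, 0 and 2.57 with IgG (log2 difference 2.86 ± 0.63 (SE), adjusted p = 0.00534 in limma). It has near-identical copies, between which reads can be split, and POLR2M lies in a read-through locus, so both are uncertain. With 1 library left out, the log2 difference was 3.16 for GTF2E1 lacking IgG repeat 3, 1.72 for POLR2M lacking IgG repeat 2 and 3.47 for POLR2J3 lacking IgG repeat 3.

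RNA polymerase III and its factors had 7 members of 27 genes looked for. Their median log2 difference was 3.75, beside 2.72 in Mediator and 3.42 over the table. All 7 stayed above 0 with rescaled libraries, where 79.2% of the table did. None of the 7 passed as higher there, beside 31.4% of the table. Each but POLR3A had a 0 in an IgG library, which rescaling leaves at 0. POLR3A, the largest subunit, scored 172, 192 and 52.2 with PD-L1, against 3.93, 13.1 and 9.52 with IgG. The IgG libraries were all above 0 and the difference was 3.75 ± 0.66 (SE) (adjusted p = 0.00223 in limma). POLR3B, the second of the catalytic subunits, scored 66.2, 73.4 and 26.6 with PD-L1, against 0, 2.83 and 0 with IgG, and POLR3E, a subunit specific to this polymerase, scored 55.1, 63.1 and 44.3 with PD-L1, against 0, 2.83 and 2.57 with IgG. Both had little or no IgG score, and their differences were 5.05 ± 0.69 (SE) (adjusted p = 0.000848 in limma) and 4.51 ± 0.58 (SE) (adjusted p = 0.000688 in limma). The SE of the polymerase subunits was at most 0.69, and that of the TFIIIA, TFIIIB and TFIIIC subunits at least 0.73. GTF3C3, of the TFIIIC complex, scored 156, 203 and 23.0 with PD-L1, against 0, 24.2 and 13.1 with IgG, so that PD-L1 repeat 3 fell just below IgG repeat 2. Its difference of 3.69 ± 1.43 (SE) (adjusted p = 0.0427 in limma) did not pass with PD-L1 repeat 1 left out (log2 3.30, adjusted p = 0.143), with PD-L1 repeat 2 left out (log2 3.12, adjusted p = 0.151), with PD-L1 repeat 3 left out (log2 4.66, adjusted p = 0.0510), with IgG repeat 1 left out (log2 2.28, adjusted p = 0.0732), with IgG repeat 3 left out (log2 4.19, adjusted p = 0.0544) or at a pseudocount of 0.1 (log2 4.83, adjusted p = 0.0950), in a range from 0.0228 to 0.643. GTF3C4, another TFIIIC subunit, scored 33.3, 38.1 and 12.0 with PD-L1, against 0, 3.09 and 0 with IgG, a difference of 4.02 ± 0.73 (SE) (adjusted p = 0.00254 in limma) with no overlap. With 1 library left out, the log2 difference was 4.34 for POLR3A lacking PD-L1 repeat 3, 5.69 for POLR3B lacking IgG repeat 2, 3.88 for POLR3E lacking IgG repeat 1 and 4.70 for GTF3C4 lacking IgG repeat 2.

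GTF3A, which is TFIIIA and binds the 5S ribosomal RNA gene, scored 29.3, 33.4 and 8.32 with PD-L1, against 0, 5.92 and 0 with IgG. The difference of 3.48 ± 0.94 (SE) (adjusted p = 0.0114 in limma) did not pass with PD-L1 repeat 1 left out (log2 3.23, adjusted p = 0.0539) or with PD-L1 repeat 2 left out (log2 3.14, adjusted p = 0.0553), in a range from 0.00227 to 0.479. BRF1, the TFIIB-like subunit of TFIIIB, scored 49.1, 45.7 and 8.86 with PD-L1, against 0, 5.66 and 8.23 with IgG. PD-L1 repeat 3 was barely above IgG repeat 3, and the difference of 2.85 ± 1.06 (SE) (adjusted p = 0.0365 in limma) did not pass with PD-L1 repeat 1 left out (log2 2.44, adjusted p = 0.131), with PD-L1 repeat 2 left out (log2 2.49, adjusted p = 0.130), with IgG repeat 1 left out (log2 1.86, adjusted p = 0.0687) or at a pseudocount of 0.1 (log2 4.01, adjusted p = 0.0908), in a range from 0.0200 to 0.794. BDP1, the SANT-domain subunit of TFIIIB and outside the symbol rule, was listed at 220.0, 226 and 88.4 with PD-L1, against 12.1, 13.1 and 17.8 with IgG. The log2 difference of BRF1 was also 3.62 lacking PD-L1 repeat 3, and that of GTF3A 4.41 lacking IgG repeat 2. In all 7 members PD-L1 repeat 3 was the lowest of its group.

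**Figure D2:**
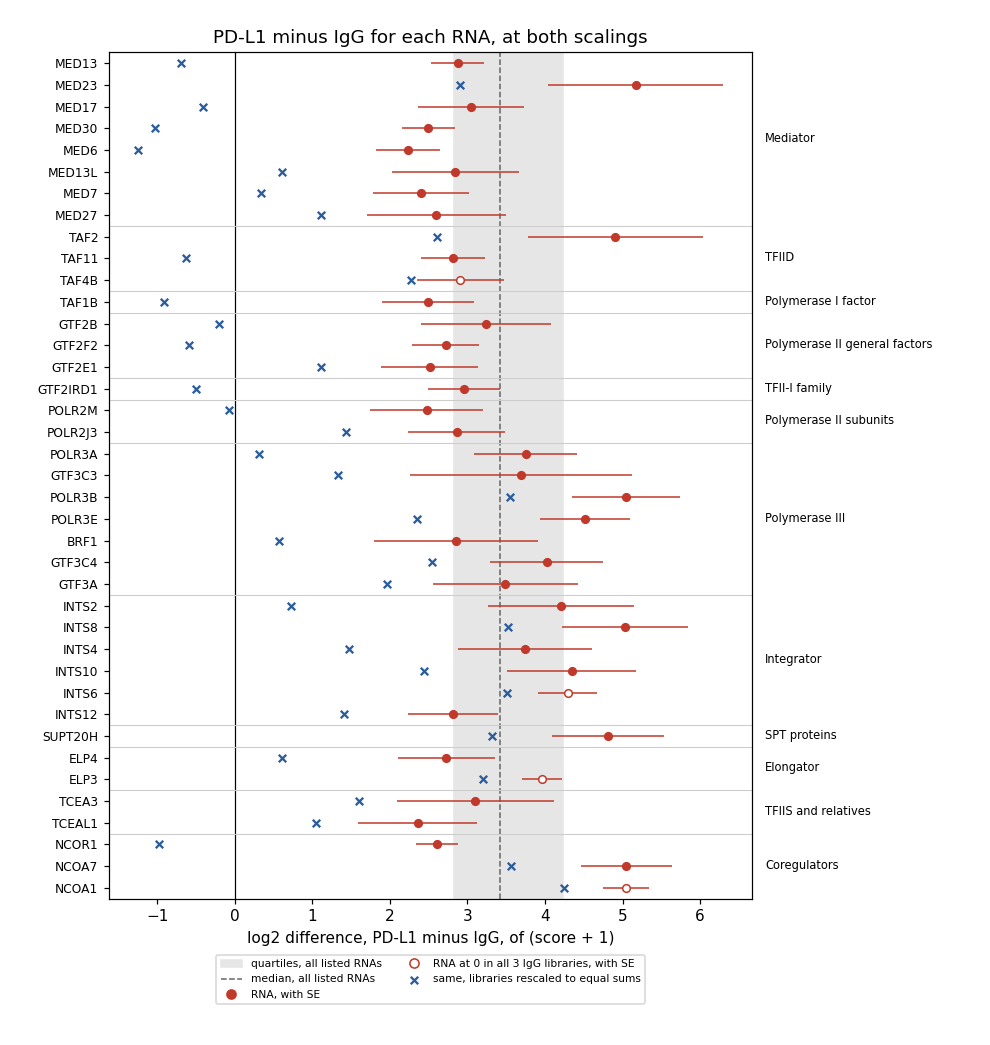
Log2 difference of score + 1, PD-L1 minus IgG, for each RNA with its SE (red; open where all IgG libraries are at 0, whose position depends on the pseudocount), and the same after rescaling libraries to equal sums (blue crosses). The dashed line and grey band are the median of 3.42 and the quartiles of all listed RNAs, and 11 crosses lie left of 0.

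Integrator had 6 members of 16 genes looked for, and INTS3 was set aside (77.1, 92.3 and 118 with PD-L1, against 7.56, 16.5 and 25.7 with IgG). The median log2 difference of the 6 was 4.25, beside 3.42 over the table. All 6 stayed above 0 with rescaled libraries, as did 79.2% of the table. INTS6 alone passed as higher there, beside 31.4% of the table. Each but INTS2 had a 0 in an IgG library, which rescaling leaves at 0. INTS2, a subunit of the core, scored 454, 442 and 288 with PD-L1, against 3.63, 47.6 and 40.1 with IgG. IgG repeat 1 was low, as its sum over all listed RNAs was, and its companions were not. The difference of 4.21 ± 0.94 (SE) (adjusted p = 0.00569 in limma) ranged from 3.12 when IgG repeat 1 was left out to 4.81 when IgG repeat 2 was. INTS8, which recruits a phosphatase to Integrator, scored 86.2, 76.7 and 20.2 with PD-L1, against 0, 0 and 3.09 with IgG. It had the highest ratio of group means of the members, 59.3, and a difference of 5.03 ± 0.81 (SE) (adjusted p = 0.00158 in limma). INTS6, in the same phosphatase module, scored 18.4, 28.8 and 12.0 with PD-L1 and was listed at 0 in all IgG libraries. Its adjusted p was 0.000167 in limma, with no spread from the IgG group. INTS4, a scaffold of the cleavage module, scored 53.9, 63.8 and 28.3 with PD-L1, against 0, 3.60 and 8.49 with IgG (log2 difference 3.74 ± 0.87 (SE), adjusted p = 0.00652 in limma). INTS10, of the module with INTS13 and INTS14, scored 42.2, 60.0 and 15.6 with PD-L1, against 4.23, 0 and 0 with IgG, an uncommon form in which IgG repeat 1 was the only IgG library above 0 (log2 difference 4.34 ± 0.83 (SE), adjusted p = 0.00311 in limma). INTS12, a PHD-finger subunit, was low, at 9.28, 13.1 and 7.61 with PD-L1, against 0, 2.57 and 0 with IgG (log2 difference 2.82 ± 0.58 (SE), adjusted p = 0.00422 in limma). With 1 library left out, the log2 difference was 5.71 for INTS8 lacking IgG repeat 3, 2.83 for INTS4 lacking IgG repeat 1 (or 4.46 lacking IgG repeat 3), 5.14 for INTS10 lacking IgG repeat 1 and 3.43 for INTS12 lacking IgG repeat 2. As with RNA polymerase III, PD-L1 repeat 3 was below both other PD-L1 repeats in all 6.

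The remaining factors act in chromatin-linked transcription, elongation and nuclear receptor signalling. SUPT20H, a core subunit of the SAGA acetyltransferase complex, scored 55.7, 68.3 and 19.1 with PD-L1, against 0, 0 and 2.57 with IgG (log2 difference 4.81 ± 0.72 (SE), adjusted p = 0.00118 in limma). ELP3, the catalytic subunit of Elongator, was among the most even of the members, at 14.9, 15.6 and 13.3 with PD-L1. It was at 0 in all 3 IgG libraries, so its adjusted p of 7.19e-05 in limma had no spread from that group. ELP4 of the accessory Elongator ring scored 12.1, 19.8 and 14.9 with PD-L1, against 0, 2.06 and 3.86 with IgG (log2 difference 2.73 ± 0.63 (SE), adjusted p = 0.00631 in limma). Both TFIIS relatives rested on few libraries. TCEA3, a TFIIS paralog, scored 23.8, 30.1 and 4.43 with PD-L1, against 0, 5.66 and 0 with IgG, so that PD-L1 repeat 3 was below IgG repeat 2. TCEAL1, a TFIIS-like protein, scored 6.87, 2.90 and 15.9 with PD-L1, against 0, 2.83 and 0 with IgG, and its repeat 2 was barely above IgG repeat 2 while repeat 3 was high. The difference of TCEA3 (3.10 ± 1.01 (SE), adjusted p = 0.0236 in limma) did not pass with PD-L1 repeat 1 left out (log2 2.79, adjusted p = 0.0927), with PD-L1 repeat 2 left out (log2 2.63, adjusted p = 0.0958), with IgG repeat 1 left out (log2 2.64, adjusted p = 0.0641) or with IgG repeat 3 left out (log2 2.64, adjusted p = 0.0699), in a range from 0.00646 to 0.509. With 1 library left out, the log2 difference was 5.42 for SUPT20H lacking IgG repeat 3, 2.08 for ELP4 lacking IgG repeat 1, 4.01 for TCEA3 lacking IgG repeat 2 and 3.01 for TCEAL1 lacking IgG repeat 2. The difference of TCEAL1 (2.36 ± 0.77 (SE), adjusted p = 0.0229 in limma) did not pass with PD-L1 repeat 1 left out (log2 2.38, adjusted p = 0.0730), with PD-L1 repeat 3 left out (log2 1.82, adjusted p = 0.0905), with IgG repeat 1 left out (log2 2.04, adjusted p = 0.0620) or with IgG repeat 3 left out (log2 2.04, adjusted p = 0.0679), in a range from 0.00831 to 0.902.

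The 3 coregulators of nuclear receptors had unlike IgG scores. NCOA1, the steroid receptor coactivator SRC-1, scored 25.4, 32.6 and 39.5 with PD-L1 and 0 in each IgG library. Its adjusted p was 5.88e-05 in limma, with no spread from the IgG group. NCOA7 scored 58.2, 46.4 and 48.7 with PD-L1, against 0, 2.83 and 0 with IgG, with all PD-L1 repeats alike (log2 difference 5.05 ± 0.59 (SE), adjusted p = 0.000460 in limma, and 5.70 lacking IgG repeat 2). NCOR1, the corepressor that brings histone deacetylase to unliganded receptors, scored 322, 350.4 and 289 with PD-L1, against 45.9, 53.0 and 56.9 with IgG. It had the highest IgG scores of the members, even across repeats, and a small difference with a small error, 2.60 ± 0.27 (SE) (adjusted p = 0.000294 in limma), which was -0.98 with rescaled libraries.

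Much of the spread within the PD-L1 group lay between repeat 3 and the other PD-L1 repeats. Repeat 3 was below both other PD-L1 repeats in 29 of the 39 RNAs (74.4%, beside 63.8% of the table) and above both in 6 (15.4%, beside 23.9%), which were MED13L, MED7, TAF4B, GTF2F2, TCEAL1 and NCOA1. The score of repeat 3 over the mean of repeats 1 and 2 had a median of 0.542 in the members, beside 0.715 in the table. It was lowest in MED23 (0.119), GTF3C3 (0.128) and TAF2 (0.138) and highest in TCEAL1 (3.25), MED7 (2.09) and GTF2F2 (1.94). Without repeat 3 the median log2 difference was 3.42 in the members, beside 3.61 in the table, and 34 of 39 passed, beside 90.6% of the table. With libraries also rescaled, 3 passed as higher (30.8% of the table did) and 3 as lower (3.74% did); those lower were MED30, MED6 and GTF2F2. A pseudocount of 0.1 without rescaling and with all libraries also gave 34 of 39, beside 88.8% of the table.

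**Figure D3:**
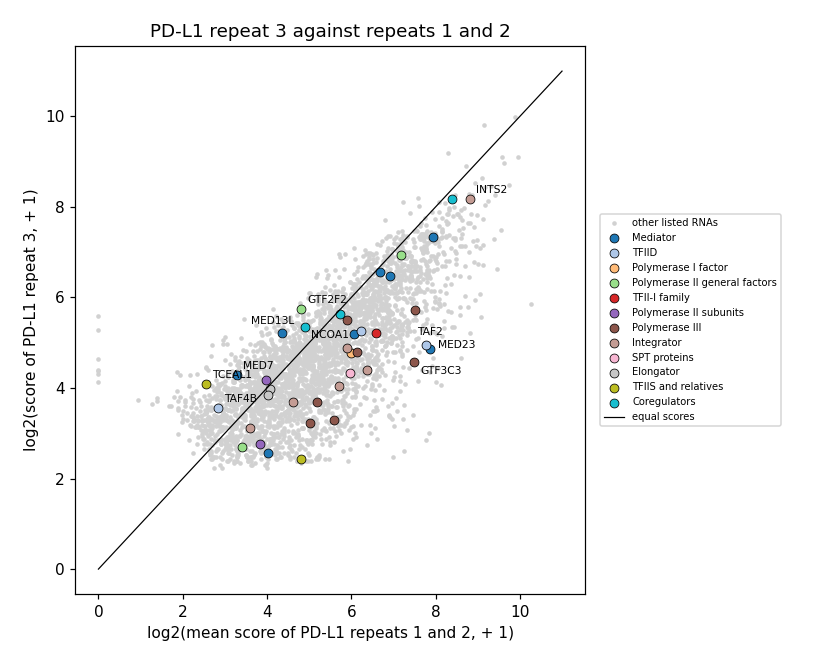
Score of PD-L1 repeat 3 against the mean of PD-L1 repeats 1 and 2, both as log2(value + 1), with the 39 RNAs coloured by complex over the other listed RNAs in grey and a line of equal scores. MED23, TAF2 and GTF3C3 lie farthest below the line, and the 6 RNAs highest in repeat 3 lie above it.

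Whether scores of different genes are comparable, as they stand or per length, is not known. The length that produced the peaks is not known either, since positions of the peaks are not in the table. Per kilobase of a GENCODE 29 transcript, the mean PD-L1 score had a median of 14.0 in the 39 RNAs, beside 8.79 in the table. GTF2B (100.4 per kilobase), MED30 (100.1) and INTS2 (67.2) stood highest, followed by TAF11 (39.2), and TAF4B (1.47), MED13L (1.71) and ELP4 (1.91) lowest. These transcripts had a median of 15 exons in the members, beside 12 in the table, a median length of 3.45 kb, beside 4.00, and a median GC content of 44.0%, beside 43.7%. Across RNAs the log2 difference and exon number had a Spearman correlation of 0.587 over the 39 and 0.230 over the 3139 listed RNAs with an annotation. With the mean PD-L1 score it was 0.562 and 0.386, with the mean IgG score 0.176 and 0.180, and with the PD-L1 score per kilobase 0.221 and 0.119. Among the 35 members above 0 with IgG, the ratio of group means gave 0.377, beside 0.199 over the 2142 such listed RNAs. Other transcript features were less correlated with the mean PD-L1 score than exon number was. These were transcript length (0.337 in the members and 0.195 in the table), the transcript's genomic span (0.077 and 0.206) and GC content (-0.240 and -0.145). The mean IgG score was more correlated with the mean PD-L1 score than exon number was, at 0.740 in the members and 0.715 in the table. These are descriptions across genes, which share libraries and are no independent replicates, and low scores limit the log2 difference that score + 1 can show. NCOR1, with 46 exons and a difference of 2.60, and MED13, with 30 exons and 2.88, had many exons and differences below the table's median. So did MED13L (31 exons, 2.85) and GTF2IRD1 (27 exons, 2.96).

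**Figure D4:**
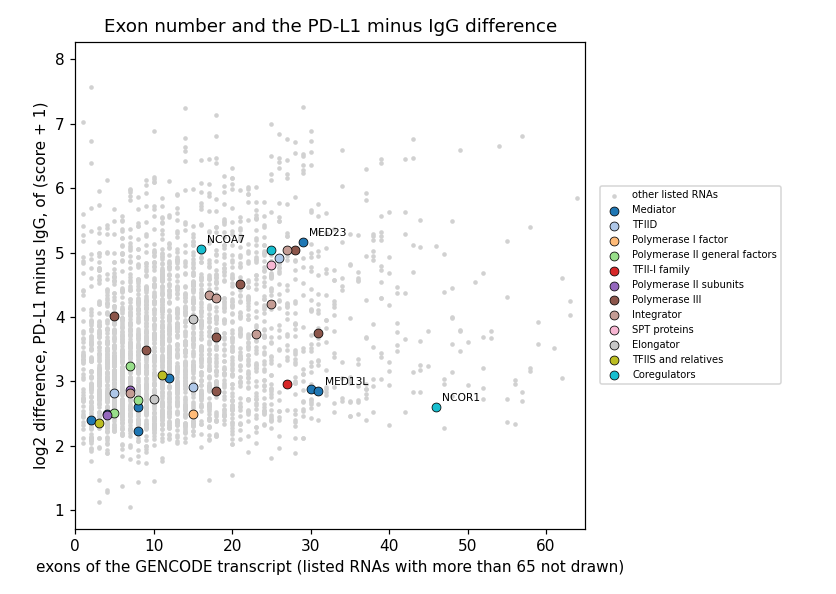
Log2 difference of score + 1, PD-L1 minus IgG, against the number of exons of the GENCODE transcript, with the 39 RNAs coloured by complex over the other listed RNAs in grey. MED23, TAF2, POLR3B, INTS8 and SUPT20H, with 25 or more exons, lie high on the vertical axis. NCOR1, at 46 exons and 2.60, lies low, and MED13, MED13L and GTF2IRD1, also with 25 or more exons, lie below the table's median of 3.42.

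Neighbouring genes limit what some scores can be assigned to. By GENCODE 29, 17 of the 39 transcripts overlap another protein-coding gene, 6 of them a listed gene on the opposite strand, and the libraries were stranded but the strand used in assigning peaks is not given in the sources used here. GTF2F2 shares 1.86 kb with KCTD4, whose scores of 40.2, 40.0 and 54.0 with PD-L1, against 3.93, 14.4 and 6.68 with IgG, also had repeat 3 highest. INTS8 shares 1.98 kb with CCNE2 (35.5, 43.6 and 22.1 with PD-L1, against 0, 0 and 0 with IgG) and INTS4 shares 39.7 kb with AAMDC (14.3, 13.2 and 14.7 with PD-L1, against 0, 4.11 and 0 with IgG). TAF11, GTF3C3 and INTS12 overlap UHRF1BP1, CCDC150 and GSTCD in the same manner. On the same strand, overlaps concerned MED17, MED7, POLR2J3, POLR2M and TCEAL1.

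Other genes of the same complexes were taken from 16 lists holding 254 genes, of which 70 were listed. These were the 39 members, 12 genes of the DNA damage list and 19 others and all 70 passed as higher, the direction for which the table was selected. A gene that is not listed was not analysed here and may or may not have had peaks. Mediator had 9 of 33 listed, TFIID 4 of 23, the general factors of RNA polymerase II 7 of 20, the TFII-I family 1 of 4 and the subunits of RNA polymerase II 3 of 15. RNA polymerase I and its factors had 2 of 14, RNA polymerase III 10 of 27, mitochondrial transcription 3 of 6, Integrator 7 of 16 and CCR4-NOT 4 of 12. SPT proteins with FACT and SAGA had 4 of 20, Elongator 2 of 6, the super elongation complex with P-TEFb 6 of 17, TFIIS relatives 2 of 16, PAF1 and NELF 1 of 10 and coregulators 5 of 15.

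The super elongation list held no member, since no symbol beginning with ELL was listed, but its 6 listed RNAs had a median log2 difference of 3.93, beside 3.42 in the table. LARP7, which binds the 7SK RNA that restrains P-TEFb, scored 58.6, 58.4 and 25.3 with PD-L1 and 0 in all IgG libraries. CCNT2, a cyclin of P-TEFb, scored 68.2, 84.8 and 101 with PD-L1, against 0, 0 and 9.01 with IgG, with repeat 3 highest. The 3 listed RNAs of the mitochondrial list were at 0 in all IgG libraries. TEFM, a mitochondrial elongation factor, scored 33.7, 39.5 and 22.9 with PD-L1, and TFB1M, a mitochondrial ribosomal RNA methyltransferase, 29.9, 23.4 and 30.8. In the SAGA list the deubiquitinase subunit ATXN7 scored 34.5, 37.0 and 62.7 with PD-L1, against 0, 4.89 and 2.32 with IgG, and the adaptor TADA2A scored 17.2, 20.1 and 8.50 with PD-L1 and 0 in all IgG libraries. In the authors' deposited table of Gene Ontology terms, nucleic acid-templated transcription held 582 listed genes of 2576 (fold 1.52, p = 2.13e-20), a term far wider than the 39 RNAs, and the test behind that p is not stated. RNA processing held 185 of 868 in the authors' deposited table (fold 1.43, p = 0.0127).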

How the data were processed

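RNA from 3 PD-L1 and 3 IgG immunoprecipitations of MDA-MB-231 was measured. Per the labels' protocols, cells were fixed with formaldehyde, lysed and sonicated, and stranded, paired-end total RNA libraries were made. TopHat2 2.0.14, HOMER 4.8.3 and build hg19 are recorded, with no roles, per the submitters' processing notes. Per the file headers, the deposited values are a score, the sum of the peak scores of a gene. The authors also deposited Gene Ontology terms with a gene count, a fold and a p-value each, which were copied, and a list of 207 DNA damage symbols. How peaks were called and scaled, and the depth, is not given in the sources used here.

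Groups were compared with limma 3.58.1 in R 4.3.3 on log2(score + 1), 2 groups, over all 3152 RNAs, with Benjamini-Hochberg adjustment at 0.05, two-sided. The procedure was tested on simulated data in which a small part of the RNAs was changed. This table was selected for a higher score with PD-L1 and holds many zeros, so that test does not bear on these calls. Fold changes are on that scale, which understates the change of low scores, and none is given where all IgG libraries are at 0. Exons, lengths and GC content come from the GENCODE 29 transcript (GRCh38; protein coding, APPRIS principal, longest) matched by Entrez ID for 3139 RNAs and all 39 members. That build is not hg19, so no coordinates are given. Named RNAs are all members, with up to 2 further RNAs per list, those of largest log2 difference. CDK8, BDP1, TAF1, INTS3 and overlapping genes are named as neighbours in a complex or on the genome. The members, classes, and complex and marker lists were chosen with earlier results of these data known. Another marker list is not reported here. Alternatives were other pseudocounts, scaling, a minimum score, a variance trend, a replicate block and each library left out.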

Additional observations from a re-analysis of the deposited data

How the results depend on the processing

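All 39 calls held with a pseudocount of 10, with scores of 0 set to 1.81, with a mean-variance trend and with the replicate block. Over all 3152 listed RNAs, 3075, 3081, 3096 and 3091 passed in these settings, in that order. With a pseudocount of 0.1, 34 members held, beside 2798 listed RNAs. With 1 library left out, 28 of the 39 moved by over 1.5-fold, a count not taken over all listed RNAs. Without IgG repeats 1 to 3 in turn, 13, 11 and 8 members moved. Without PD-L1 repeats 1 and 3 in turn, 1 and 8 did, some RNAs moving in more than 1 setting. In these settings 33 to 38 of the members and 2730 to 3032 of all listed RNAs passed. The members' median ranged from 2.83 to 3.54. Requiring a mean score of 10 or more left 28 members tested, all passing, beside 2093 of 2121 listed RNAs. Their median was 3.59 (beside 3.68). The members' median was 4.74 with a pseudocount of 0.1 (beside 5.39 over all listed RNAs), 1.98 with one of 10 (beside 1.69, so that the members then lay above the table), and 1.11 with rescaled libraries (beside 1.76), in which 4 members and 990 listed RNAs passed as higher, against 39 and 3078. Rescaling to equal sums removes the enrichment common to a list selected for 1 direction, and it leaves a score of 0 at 0. It put MED13 (-0.69), MED17 (-0.42), MED30 (-1.03), MED6 (-1.25), TAF11 (-0.63), TAF1B (-0.92), GTF2B (-0.21), GTF2F2 (-0.59), GTF2IRD1 (-0.50), POLR2M (-0.077) and NCOR1 (-0.98) below 0, and another 24 members no longer passed. Rescaled libraries without PD-L1 repeat 3, an alternative chosen after seeing the data, gave 3 members and 971 listed RNAs as higher, a median of 1.34 (beside 1.61), and put MED13 (-0.75), MED17 (-0.52), MED30 (-1.25), MED6 (-1.22), MED7 (-0.21), TAF11 (-0.56), TAF1B (-0.77), GTF2B (-0.39), GTF2F2 (-1.14), GTF2IRD1 (-0.29), POLR2M (-0.41) and NCOR1 (-1.17) below 0, of which MED30, MED6 and GTF2F2 passed as lower. Same-numbered PD-L1 and IgG libraries had deviations that correlated at -0.121, 0.071 and -0.079. Little deviation was thus shared by repeat number, but this cannot tell whether such libraries were prepared together. The block gave 3091 listed RNAs, against 3078. Depth is unknown and 3 libraries per group limit the precision.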
